A study of Mus musculus with 6 samples.

Results

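The genes described are 32 genes of cholesterol synthesis, uptake, export and storage and of the control of the pathway by SREBP (sterol regulatory element-binding protein). They were chosen by gene symbol from a table of 25655 genes, and all 32 symbols were found. RNA was sequenced from Comma-Dβ, an established line of mouse mammary epithelium, after transfection with a siRNA pool against Id4 (siID4, 3 libraries) or with a non-targeting pool (NT, 3 libraries). The protein made from Id4 belongs to the helix-loop-helix class but has no DNA-binding region of its own; it pairs with other members of the class and keeps them off DNA. In both arms the cells were at passage 29, grew in medium with foetal bovine serum, insulin and EGF, received 20 nM siRNA and were harvested 48 hr later, so both arms carried the transfection and the serum. The siID4 pool was a siGENOME product and the NT pool an ON-TARGETplus product, so the product line and the target cannot be told apart. All libraries came from 1 line at 1 passage, and the labels call them biological replicates without saying what libraries with the same replicate number share.

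Id4 averaged 56.6 ± 7.41 CPM (counts scaled to a common library size) in siID4 cells and 122 ± 11.5 CPM in NT cells (SD, n = 3 each), with a log2 fold change of −1.11 (SE 0.10, edgeR adjusted p = 8.65e-04). The siID4 libraries held 21701067 to 23062482 counts and the NT libraries 19216688 to 23095620. Of 13941 genes tested with edgeR's quasi-likelihood test, 644 were higher and 687 lower in siID4 cells at a Benjamini-Hochberg adjusted p under 0.05, here termed called. With library totals in place of TMM scaling the split was 829 higher and 564 lower. The counts were 221 higher and 224 lower without siID4 replicate 2, and 291 and 340 without NT replicate 2; 404 were higher without siID4 replicate 1 and 423 without NT replicate 3. All 8 mammary epithelial markers examined were measured well above 0, Krt5 at 727 ± 43.0 CPM in siID4 cells and 822 ± 79.9 CPM in NT cells (edgeR adjusted p = 0.165, or 4.65e-05 with the replicate number as a block). Of these 8, Cdh1 and Trp63 were called higher and Epcam lower, and with the block 2 were higher and 5 lower. Summed fibroblast markers were 4804 to 5522 CPM in siID4 cells and 3385 to 4000 CPM in NT cells, with 4 of 8 tested called higher and 1 lower. With the block 6 of these were higher and 2 lower, beside 17.9% and 18.3% of all genes tested. The fibroblast markers Lum, Dpt and Thy1 averaged under 1 CPM in both arms. The others averaged from 36.3 CPM (Pdgfra) to 1817 CPM (Col1a1) in siID4 cells, and from 56.0 CPM (Pdgfra) to 1171 CPM (Col1a1) in NT cells. Markers of endothelial cells and pericytes summed to 1.89 to 2.72 CPM in siID4 cells and 0.836 to 1.50 CPM in NT cells. Of the adipocyte and leukocyte markers found, only Plin1 (adipocytes) and Cd52 (leukocytes) were at 0 in all 6 libraries. Adipocyte markers summed to 3.03 to 3.54 CPM in siID4 cells and 2.61 to 2.77 CPM in NT cells, and leukocyte markers to 2.17 to 2.85 CPM in siID4 cells and 2.25 to 2.56 CPM in NT cells. Pparg made up most of the adipocyte sum and Cd68 most of the leukocyte sum in both arms. The leukocyte marker Ptprc was detected in some libraries of both arms, at very few counts. The part of these markers in the results below was not tested.

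Cells make cholesterol from acetyl-CoA, first through mevalonate to the isoprenoid farnesyl diphosphate, then through squalene and lanosterol to the sterol ring system and its finishing reactions. When membrane sterol is low, SCAP carries SREBP precursors from the endoplasmic reticulum to the Golgi, where they are cut to release a transcription factor that switches on the synthesis enzymes; when sterol is plentiful, INSIG proteins hold SCAP back. Excess cholesterol is met by the liver X receptors (LXR), which bind oxysterols and switch on exporters such as ABCA1, and by esterification for storage. In the lactating mammary gland, epithelial cells pass cholesterol that they make or take from the blood into milk fat.

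The synthesis enzymes as a group were less abundant in siID4 cells, the sterol exporter Abca1 was more abundant, and the SREBP genes Srebf1 and Srebf2 were not called, although Srebf2 was lower with the replicate block or without a filter on low counts. Of the 32 genes, 31 passed the filter on low counts and Abcg1 did not. Of those 31, 12 fell, which is 38.7% of them beside 4.93% of all genes tested, and 1 rose, 3.23% beside 4.62%. The genes that fell were Acat2, Pmvk, Idi1, Fdps, Fdft1, Sqle, Lss, Cyp51, Msmo1, Nsdhl, Sc5d and Stard4, with siID4 levels between 64.3% and 84.6% of NT and log2 fold changes from −0.64 to −0.24. The gene that rose was Abca1. The median log2 fold change over the 31 was −0.22, against 0.00 over all genes tested. These are bulk libraries, in which fewer cells of a type and less RNA per cell cannot be told apart.

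Levels of the 2 arms did not overlap, with all siID4 libraries lower, for 16 of the 31 genes, beside 15.4% of all genes tested, and with all siID4 libraries higher for 5, beside 15.5%. Libraries with the same replicate number deviated together from their group means, so the comparison was also fitted with the number as a block. The correlations across genes were 0.42, 0.14 and 0.38 for numbers 1, 2 and 3. In the fit with the block 19 of the 31 were lower, 61.3% beside 18.3% of all genes, and 4 were higher, 12.9% beside 17.9%. Of the 18 genes not called without the block, 7 were lower and 3 higher with it, and 8 were called in neither fit. Within all 3 numbers 21 genes were lower in the siID4 library, beside 29.6% of all genes, and 7 were higher, beside 29.9%.

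**Figure D1:**
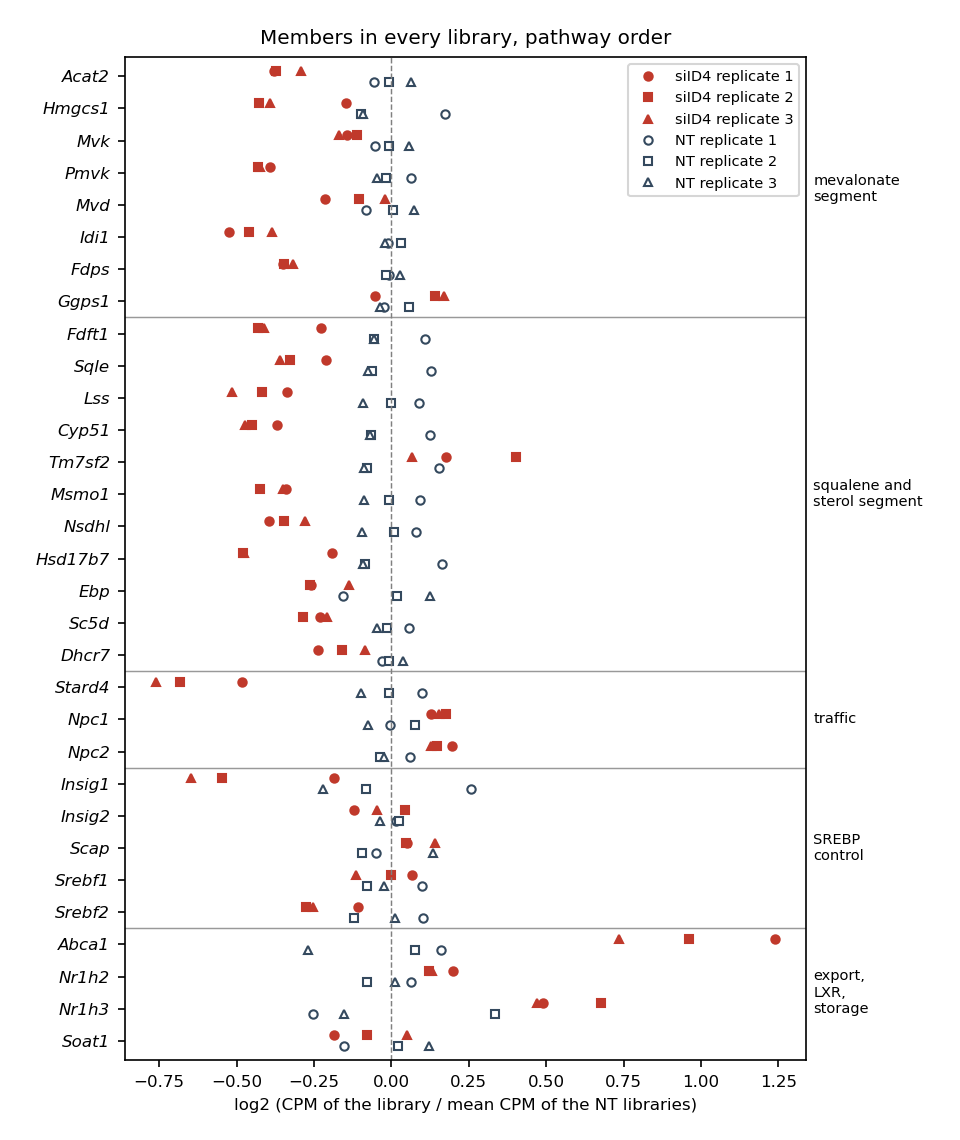
Level of each of the 31 genes tested in every library as log2 of its CPM over the mean CPM of the NT libraries, in pathway order, with filled red symbols for siID4 and open symbols for NT. Most synthesis enzymes have all siID4 libraries left of all NT libraries (15 of 19, beside 15.4% of all genes tested), whereas the Abca1 libraries of the siID4 arm all lie to the right.

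The start regions of the genes show which of the sequence elements known for this pathway lie close to them. RefSeq windows (GRCm38.p6) from 250 bases before to 50 bases after the annotated start were at hand for 26 of the 32 genes, the exceptions being Fdps, Fdft1, Sqle, Stard4, Npc1 and Abcg1. Searched on both strands were TCACNCCAC, a form of the sterol regulatory element that SREBP binds, CCAAT and GGGCGG, the boxes of NF-Y and Sp1 that often accompany it, and the E-boxes CACGTG and CAGCTG, together with CACCTG, a class of element bound by helix-loop-helix proteins. TCACNCCAC and CACCTG can share letters, but no element shares a base with another in the windows printed here. Some genes have several windows, and a gene was counted once if any of its windows held the element. CCAAT was found in 21 of 26 genes and GGGCGG in 22 of 26. Among all 27025 genes with a window, whether expressed in these cells or not, the shares were 41.1% and 38.2%. TCACNCCAC was found in 1 of 26, Hmgcs1, against 388 of the 27025 genes. Other forms of the sterol regulatory element were not searched, so a gene without a match was not shown to lack the element. CACGTG was found in 6 genes (8.09% of all genes), CAGCTG in 4 (18.3%) and CACCTG in 8 (22.6%). Among the 8 genes that fell and had a window, CCAAT was found in 7, GGGCGG in 7, CACCTG in 3, CAGCTG in 2, CACGTG in 1 and TCACNCCAC in 0. Among the 18 other genes with a window the counts were 14, 15, 5, 2, 5 and 1, in the same order. A match is only a run of letters in this window.

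The windows printed are those of the 4 genes with the smallest adjusted p for which a window was at hand, with the searched elements of either strand in capitals. Idi1 (chr13:8885356-8885655, plus strand) has ATTGG, the reverse complement of CCAAT, 45 and 14 bases before the start, the upstream copy directly after CAGCTG. Pmvk (chr3:89454291-89454590, plus strand, the first of 2 listed starts) holds CCAAT and CACCTG. Cyp51 (chr5:4104648-4104947, minus strand) holds GGGCGG and CCAAT, and Acat2 (chr17:12960676-12960975, minus strand) holds CCGCCC, the reverse complement of GGGCGG.
Idi1: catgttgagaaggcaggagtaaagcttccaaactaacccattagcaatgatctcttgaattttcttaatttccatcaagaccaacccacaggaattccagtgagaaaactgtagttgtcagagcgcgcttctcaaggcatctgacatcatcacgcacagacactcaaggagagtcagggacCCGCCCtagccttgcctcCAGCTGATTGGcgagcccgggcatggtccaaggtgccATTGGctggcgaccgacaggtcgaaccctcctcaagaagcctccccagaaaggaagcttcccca
Pmvk: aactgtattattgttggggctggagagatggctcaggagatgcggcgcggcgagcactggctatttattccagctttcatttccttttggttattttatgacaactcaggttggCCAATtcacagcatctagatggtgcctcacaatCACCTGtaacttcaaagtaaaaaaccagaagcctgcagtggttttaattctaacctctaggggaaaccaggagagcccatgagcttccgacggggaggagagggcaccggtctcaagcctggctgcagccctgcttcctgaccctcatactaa
Cyp51: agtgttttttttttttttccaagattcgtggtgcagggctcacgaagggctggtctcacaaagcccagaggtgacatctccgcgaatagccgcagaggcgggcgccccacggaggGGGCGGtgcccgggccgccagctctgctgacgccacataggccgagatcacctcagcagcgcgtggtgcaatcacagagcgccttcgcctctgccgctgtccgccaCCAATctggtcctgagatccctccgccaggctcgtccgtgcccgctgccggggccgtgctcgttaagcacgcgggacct
Acat2: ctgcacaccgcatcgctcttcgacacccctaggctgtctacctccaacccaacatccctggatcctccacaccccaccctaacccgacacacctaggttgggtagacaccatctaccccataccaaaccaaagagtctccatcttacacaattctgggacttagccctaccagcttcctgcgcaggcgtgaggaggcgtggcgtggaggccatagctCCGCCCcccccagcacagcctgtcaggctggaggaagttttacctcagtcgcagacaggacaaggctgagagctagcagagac

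A further pair of windows is that of Hmgcs1, the only gene with a match to TCACNCCAC in its window, and Abca1, the gene that rose. Both were chosen after their values were seen. Hmgcs1 (chr13:119690101-119690400, plus strand) has TCACCCCAC 137 bases before the start, with 4 copies of ATTGG and 3 of GGGCGG or its reverse complement in the same window. Abca1 (chr4:53159846-53160145, minus strand) has GGGCGG 163 and 97 bases before the start and CACGTG 147 bases before it.
Hmgcs1: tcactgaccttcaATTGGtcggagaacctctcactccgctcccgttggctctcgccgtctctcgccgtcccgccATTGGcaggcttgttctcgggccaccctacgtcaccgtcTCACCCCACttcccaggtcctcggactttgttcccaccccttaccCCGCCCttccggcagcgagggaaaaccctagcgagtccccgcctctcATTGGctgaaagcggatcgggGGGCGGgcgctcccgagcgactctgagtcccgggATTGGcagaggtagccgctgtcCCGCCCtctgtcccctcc
Abca1: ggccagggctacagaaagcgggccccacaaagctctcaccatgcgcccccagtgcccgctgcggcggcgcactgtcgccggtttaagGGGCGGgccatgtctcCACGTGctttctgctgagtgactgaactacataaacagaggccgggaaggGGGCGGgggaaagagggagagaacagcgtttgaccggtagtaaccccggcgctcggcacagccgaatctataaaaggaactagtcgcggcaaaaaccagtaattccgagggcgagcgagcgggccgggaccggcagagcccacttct

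The 8 genes of the mevalonate segment lie on the route from acetyl-CoA to farnesyl and geranylgeranyl diphosphate. They do not cover every step of it. In siID4 cells 4 of them fell and 0 rose, beside 4.93% and 4.62% of all genes tested, and the median log2 fold change was −0.33. Acat2 (ENSMUSG00000023832), the cytosolic thiolase that joins a pair of acetyl-CoA units, had 80.1, 80.4 and 85.2 CPM in siID4 libraries, against 100.2, 104 and 109 CPM in NT libraries. The arms did not overlap, and Acat2 fell by 0.35 on the log2 scale (SE 0.05, edgeR adjusted p = 0.00460). Hmgcs1, the synthase of the next step, had 298, 245 and 252 CPM in siID4 libraries and 372, 308 and 309 CPM in NT libraries. The replicate 1 library was the highest of each arm, and the siID4 arm lay wholly below the NT arm by a small margin. Its log2 fold change of −0.32 (SE 0.10) did not pass (edgeR adjusted p = 0.0769) but passed in DESeq2 (adjusted p = 0.015) and with the block (edgeR adjusted p = 3.91e-11), the differences within numbers being −0.32, −0.33 and −0.30.

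The kinases and the decarboxylase further along the segment differed in the size of their change. Mvk, mevalonate kinase, averaged 48.9 ± 1.02 CPM in siID4 cells and 53.9 ± 2.06 CPM in NT cells (SD, n = 3 each), and its log2 fold change of −0.14 passed only with the block (edgeR adjusted p = 0.152 without it and 0.0146 with it). Pmvk, phosphomevalonate kinase, had 45.5, 44.2 and 44.4 CPM in siID4 libraries against 62.3, 58.9 and 57.7 CPM in NT libraries. All 3 siID4 values were far below the lowest NT value, and the gene fell by 0.42 on the log2 scale (SE 0.06, edgeR adjusted p = 0.00326). Mvd, the decarboxylase that forms isopentenyl diphosphate, averaged 39.2 ± 2.61 CPM in siID4 cells and 42.4 ± 2.31 CPM in NT cells, with overlapping arms, and passed in neither fit (log2 fold change −0.11, edgeR adjusted p = 0.385, or 0.0951 with the block).

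Idi1, the isomerase of isopentenyl diphosphate, had the smallest adjusted p of the 31 genes. Its level was 139.6, 146 and 154 CPM in siID4 libraries and 199, 205 and 198 CPM in NT libraries, 72.9% of NT on average. The spread within either arm was small beside the gap between them, and the fall was 0.46 on the log2 scale (SE 0.05, edgeR adjusted p = 0.00123). Fdps, which builds farnesyl diphosphate, was the most abundant of all 32 genes per length, at 129.7 CPM per kilobase in siID4 cells and 164 in NT cells. Its libraries held 164, 165 and 168 CPM in the siID4 arm and 208, 207 and 214 CPM in the NT arm. Values within each arm were nearly the same, and Fdps fell by 0.34 on the log2 scale (SE 0.04, edgeR adjusted p = 0.00203). Ggps1, which draws farnesyl diphosphate away from sterols towards geranylgeranyl diphosphate, averaged 22.7 ± 1.88 CPM in siID4 cells and 21.4 ± 0.758 CPM in NT cells. Its arms overlapped and it was called in neither fit (log2 fold change 0.09, edgeR adjusted p = 0.553, or 0.270 with the block).

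Of the 11 genes of the squalene and sterol segment, 7 fell and 0 rose, with a median log2 fold change of −0.34. With the block, 10 of 11 were lower, and without siID4 replicate 2, 3 of 11 (Lss, Cyp51 and Msmo1), as Fdft1, Sqle, Nsdhl and Sc5d then did not pass. Among all genes tested 4.93% fell, 18.3% were lower with the block, and 224 of 14168 fell without siID4 replicate 2. Fdft1, squalene synthase, had 104, 90.4 and 91.7 CPM in siID4 libraries against 131, 117 and 117 CPM in NT libraries. Replicate 1 was again the highest in each arm, yet the highest siID4 library was below every NT library (log2 fold change −0.35, SE 0.07, edgeR adjusted p = 0.0153). Sqle, squalene epoxidase, a rate-limiting enzyme of the late pathway, had 294, 272 and 265 CPM in siID4 libraries and 373, 326 and 324 CPM in NT libraries. The replicate 1 libraries were again the highest, the arms did not overlap, and Sqle fell by 0.30 on the log2 scale (SE 0.07, edgeR adjusted p = 0.0224). Without siID4 replicate 2 neither gene passed (edgeR adjusted p = 0.0874 for Fdft1 and 0.109 for Sqle), and Sqle also failed without siID4 replicate 3 (0.0632) or NT replicate 2 (0.0543).

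Lss, lanosterol synthase, which closes the sterol rings, had 107, 101 and 94.3 CPM in siID4 libraries against 143, 135 and 126 CPM in NT libraries. The order of the numbers was the same in both arms, and the differences within them were nearly equal at −0.42, −0.41 and −0.42 (log2 fold change −0.42, SE 0.06, edgeR adjusted p = 0.00477). Cyp51, the lanosterol demethylase, had 229, 216 and 213 CPM in siID4 libraries against 322, 282 and 282 CPM in NT libraries. No siID4 value came near an NT value, and Cyp51 fell by 0.43 on the log2 scale (SE 0.06, edgeR adjusted p = 0.00399). Tm7sf2, a sterol reductase of the next step, was the only gene of the segment with a log2 fold change above 0. It had 9.02, 10.6 and 8.37 CPM in siID4 libraries and 8.88, 7.57 and 7.52 CPM in NT libraries, with overlapping arms and no call (log2 fold change 0.22, edgeR adjusted p = 0.314, or 0.0956 with the block). Per length it was the least abundant of the 19 enzymes, at 7.62 CPM per kilobase in siID4 cells and 6.54 in NT cells.

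The demethylation complex that follows holds Msmo1, Nsdhl and Hsd17b7, which remove methyl groups from the sterol ring. Msmo1, its oxidase, had 133, 125 and 132 CPM in siID4 libraries against 179, 167 and 158 CPM in NT libraries, a fall of 0.37 on the log2 scale (SE 0.06, edgeR adjusted p = 0.00478). Nsdhl, its dehydrogenase, had 64.8, 67.0 and 70.3 CPM in siID4 libraries against 90.1, 85.9 and 79.9 CPM in NT libraries, a fall of 0.34 (SE 0.06, edgeR adjusted p = 0.00909, or 0.0553 without siID4 replicate 2). Neither gene had an overlap between arms, and for Nsdhl the order of the numbers in the siID4 arm was the opposite of that in the NT arm. Hsd17b7, its keto reductase, had 35.6, 29.1 and 29.2 CPM in siID4 libraries against 45.5, 38.3 and 38.1 CPM in NT libraries. Its arms did not overlap, the log2 fold change of −0.38 (SE 0.10) did not pass (edgeR adjusted p = 0.0521), and it passed with the block (1.13e-06), without a filter on low counts (0.0138) and in DESeq2 (adjusted p = 0.0142).

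The finishing reactions had the smallest differences among the sterol enzymes that were lower. Ebp, the sterol isomerase, averaged 45.3 ± 2.30 CPM in siID4 cells and 52.7 ± 5.14 CPM in NT cells, with overlapping arms (log2 fold change −0.22, edgeR adjusted p = 0.122, or 0.000563 with the block). Sc5d, the desaturase of the sterol ring, had 59.9, 57.6 and 60.7 CPM in siID4 libraries against 73.1, 69.5 and 68.0 CPM in NT libraries. It fell by 0.24 on the log2 scale (SE 0.05, edgeR adjusted p = 0.0244), a call that was lost without siID4 replicate 1 (0.0544), siID4 replicate 2 (0.122), NT replicate 1 (0.0545) or NT replicate 2 (0.0826). Dhcr7, which reduces dehydrocholesterol, averaged 92.6 ± 4.87 CPM in siID4 cells and 103 ± 2.55 CPM in NT cells. Its arms did not overlap, and its log2 fold change of −0.16 passed only with the block (edgeR adjusted p = 0.0901 without it and 0.000242 with it).

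Summed over the 19 enzymes of both segments, the mRNA came to 2001, 1899 and 1927 CPM in siID4 libraries against 2570, 2387 and 2374 CPM in NT libraries. Each siID4 library was below each NT library, and the siID4 mean was 79.5% of the NT mean (1942 ± 53.1 CPM in siID4 cells and 2443 ± 109.9 CPM in NT cells, SD, n = 3 each). Of the 19 enzymes, 11 fell, 16 were lower with the block and 17 were lower within all 3 replicate numbers, the exceptions being Ggps1 and Tm7sf2. The shares among all genes tested were 4.93%, 18.3% and 29.6%, in the same order.

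**Figure D2:**
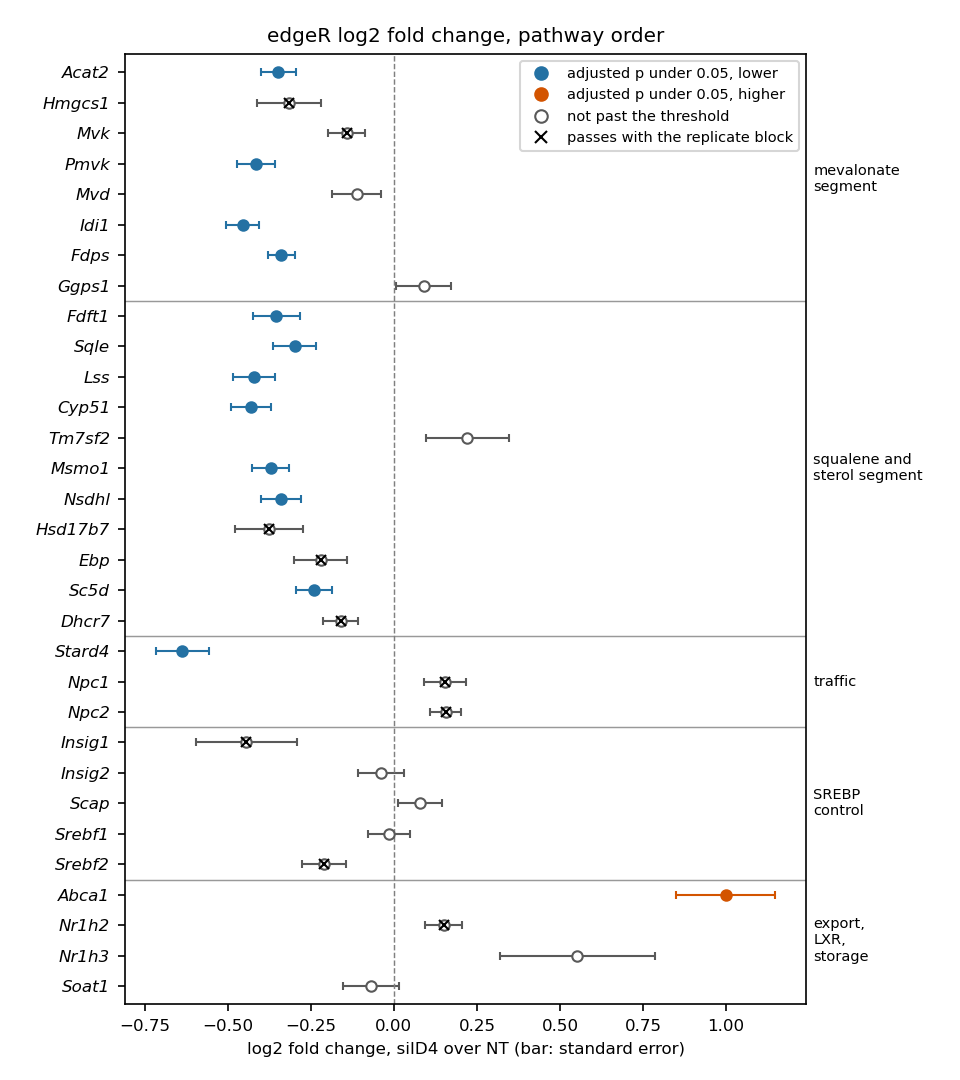
Log2 fold change of siID4 over NT from edgeR for the 31 genes tested, in pathway order, with bars for the standard error, filled symbols for genes called and crosses for genes called only with the replicate block. The enzymes lie mostly between −0.46 and −0.11, Stard4 is lowest at −0.64 and Abca1 highest at 1.00.

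Of the 3 genes of cholesterol traffic, Stard4 fell and the late endosomal pair Npc1 and Npc2 lay on the other side of 0. Stard4, a soluble carrier that moves sterol between membranes, had 66.7, 58.0 and 55.0 CPM in siID4 libraries against 99.7, 92.7 and 87.1 CPM in NT libraries. The arms were well apart, and its log2 fold change of −0.64 (SE 0.08, edgeR adjusted p = 0.00240) was the lowest of the 31. Npc2, which lifts cholesterol freed from lipoprotein inside the lysosome and hands it to NPC1, had 162, 156 and 154 CPM in siID4 libraries against 147, 138 and 139 CPM in NT libraries. All siID4 values were higher, by a small margin (log2 fold change 0.16, SE 0.05, edgeR adjusted p = 0.0683, or 0.0348 with library totals and 9.38e-05 with the block). Npc1, the membrane protein that exports it from the lysosome, averaged 40.8 ± 0.713 CPM in siID4 cells and 36.7 ± 1.92 CPM in NT cells, again without overlap (log2 fold change 0.15, edgeR adjusted p = 0.172, or 0.0244 with the block).

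None of the 5 genes that control SREBP was called, and the arms of all 5 overlapped. With the block, Insig1 and Srebf2 were lower. Insig1, a retention protein whose own transcription follows SREBP activity, had 98.5, 76.6 and 71.5 CPM in siID4 libraries against 134, 106 and 96.1 CPM in NT libraries. Replicate 1 was far above the others in both arms, so that the highest siID4 library lay above the lowest NT library, but the differences within numbers were −0.44, −0.46 and −0.42. The SD of log2 levels within arms was 0.24, that of the differences within numbers 0.02. The fitted log2 fold change of −0.44 (SE 0.15) did not pass (edgeR adjusted p = 0.118), and with the block the adjusted p was 1.71e-12; DESeq2 without the block also called it (adjusted p = 0.0137).

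Srebf2, which encodes the SREBP most tied to cholesterol synthesis, had 365, 325 and 329.9 CPM in siID4 libraries against 422, 361 and 396 CPM in NT libraries. The highest siID4 library lay just above the lowest NT library, and within each number the siID4 library was lower (log2 differences −0.21, −0.15 and −0.26). Its log2 fold change of −0.21 (SE 0.07) did not pass (edgeR adjusted p = 0.0812) but passed without a filter on low counts (0.0415) and with the block (2.14e-07). Srebf1, which encodes the SREBP proteins more tied to fatty acid synthesis, had 226, 215 and 199 CPM in siID4 libraries and 231, 204 and 212 CPM in NT libraries. Its arms overlapped throughout, and the differences within numbers had mixed signs at −0.03, 0.08 and −0.09 (log2 fold change −0.01, SE 0.06, edgeR adjusted p = 0.918). Per length the SREBP genes were at like levels, Srebf1 at 76.8 CPM per kilobase in siID4 cells and 77.6 in NT cells, Srebf2 at 68.1 in siID4 cells and 78.8 in NT cells.

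Insig2, the other retention protein, averaged 31.4 ± 1.80 CPM in siID4 cells and 32.3 ± 0.742 CPM in NT cells (log2 fold change −0.04, SE 0.07, edgeR adjusted p = 0.777). Scap, the escort of SREBP, averaged 102 ± 3.81 CPM in siID4 cells and 96.1 ± 8.29 CPM in NT cells (log2 fold change 0.08, SE 0.07, edgeR adjusted p = 0.504). Neither passed with the block (edgeR adjusted p = 0.614 for Insig2 and 0.0642 for Scap).

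**Figure D3:**
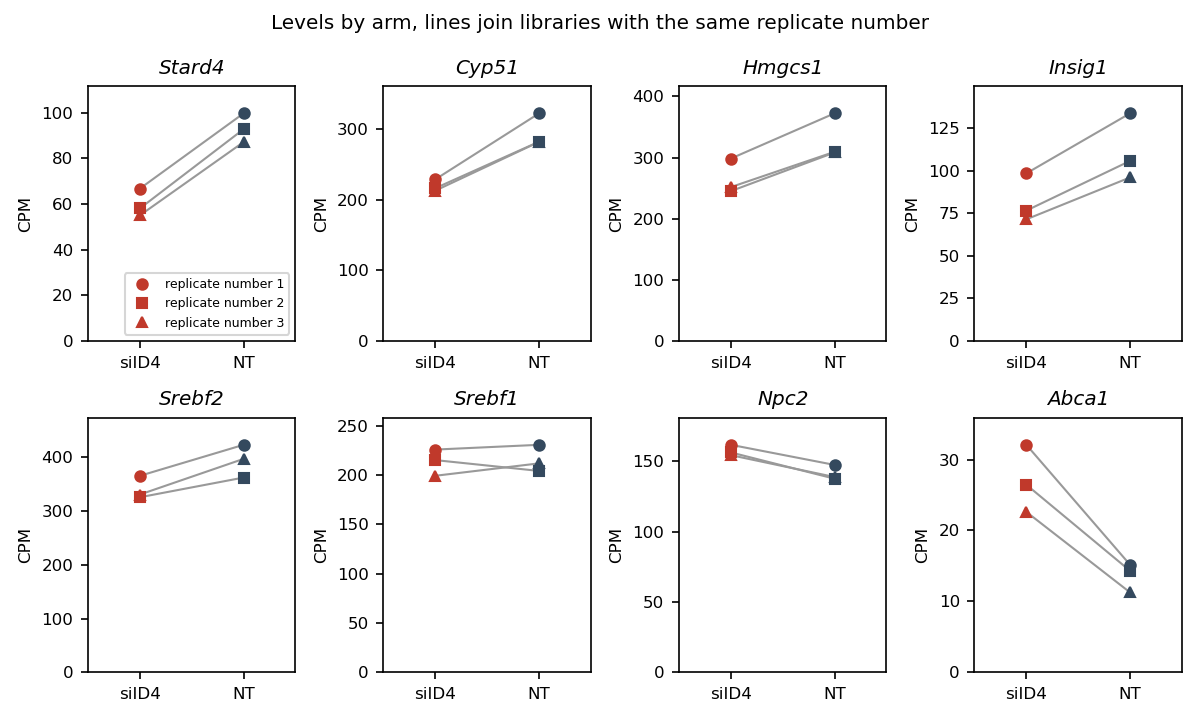
Levels in CPM of 8 genes in siID4 (left, red) and NT (right, dark) libraries, with a line joining libraries of the same replicate number and the axis starting at 0. For Insig1 the lines run nearly parallel although the arms overlap (log2 differences −0.44, −0.46 and −0.42), for Srebf1 they cross, and for Npc2 and Abca1 the siID4 end is the higher.

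Of the 5 genes of export and storage, Abca1 rose, 0 fell, and Abcg1 was too scarce to be tested. Abca1, the exporter that loads cholesterol onto apolipoprotein A-I, had 32.1, 26.4 and 22.6 CPM in siID4 libraries against 15.2, 14.3 and 11.3 CPM in NT libraries. The lowest siID4 library was well above the highest NT library, and Abca1 rose to 199% of NT (27.05 ± 4.75 CPM in siID4 cells and 13.6 ± 2.05 CPM in NT cells, SD, n = 3 each). This is a log2 fold change of 1.00 (SE 0.15, edgeR adjusted p = 0.00532), with 1.06, 0.86 and 0.97 within the 3 numbers. Abca1 was called in all 6 fits without 1 library and under the 8 other alternatives. Per length it was still scarce, at 2.64 CPM per kilobase in siID4 cells and 1.32 in NT cells.

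Abcg1, the exporter that passes cholesterol to HDL, was near the limit of detection and was not tested. It had 11, 10 and 9 counts in siID4 libraries and 2, 3 and 4 counts in NT libraries. The sums were 30 counts in the siID4 arm and 9 in the NT arm, a ratio of CPM of 3.03 with an exact 95% interval of 1.40 to 7.25 that covers counting error only. With no filter on low counts, Abcg1 was not called.

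The LXR genes were not called without the block. Nr1h2, which encodes LXRβ, had 72.0, 68.3 and 68.7 CPM in siID4 libraries against 65.6, 59.4 and 63.4 CPM in NT libraries, all siID4 values being higher (log2 fold change 0.15, SE 0.06, edgeR adjusted p = 0.132, or 0.00231 with the block). Nr1h3, which encodes LXRα, was low, at 1.51, 1.72 and 1.49 CPM in siID4 libraries and 0.903, 1.36 and 0.968 CPM in NT libraries. Its arms did not overlap, but its log2 fold change of 0.55 (SE 0.23) passed in neither fit (edgeR adjusted p = 0.173, or 0.0668 with the block). Soat1, which esterifies cholesterol for storage, averaged 61.4 ± 5.03 CPM in siID4 cells and 64.4 ± 6.12 CPM in NT cells, with overlapping arms and no call (log2 fold change −0.07, edgeR adjusted p = 0.664, or 0.187 with the block).

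Among the 31 genes, 15 (48.4%) had their highest level in the replicate 1 library of both arms, beside 23.5% of all genes tested. For Hmgcs1, Fdft1, Lss, Hsd17b7 and Insig1, which are among them, the SD within arms was 0.15, 0.10, 0.09, 0.15 and 0.24 on the log2 scale, and the SD of the differences within numbers 0.02, 0.02, 0.01, 0.02 and 0.02. For Msmo1 and Srebf1, also among them, it was 0.07 and 0.09 within arms and 0.09 and 0.08 for the differences. The median SD of log2 levels within arms was 0.09 over the 31 genes, and the median SD of differences within numbers was 0.05. Over all genes tested these medians were 0.11 and 0.09. A difference carries the spread of both its libraries, so its SD would tend to exceed the SD within arms if same-numbered libraries shared nothing. What the libraries numbered 1 share is not stated in the labels, and its part in these levels was not tested.

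**Figure D4:**
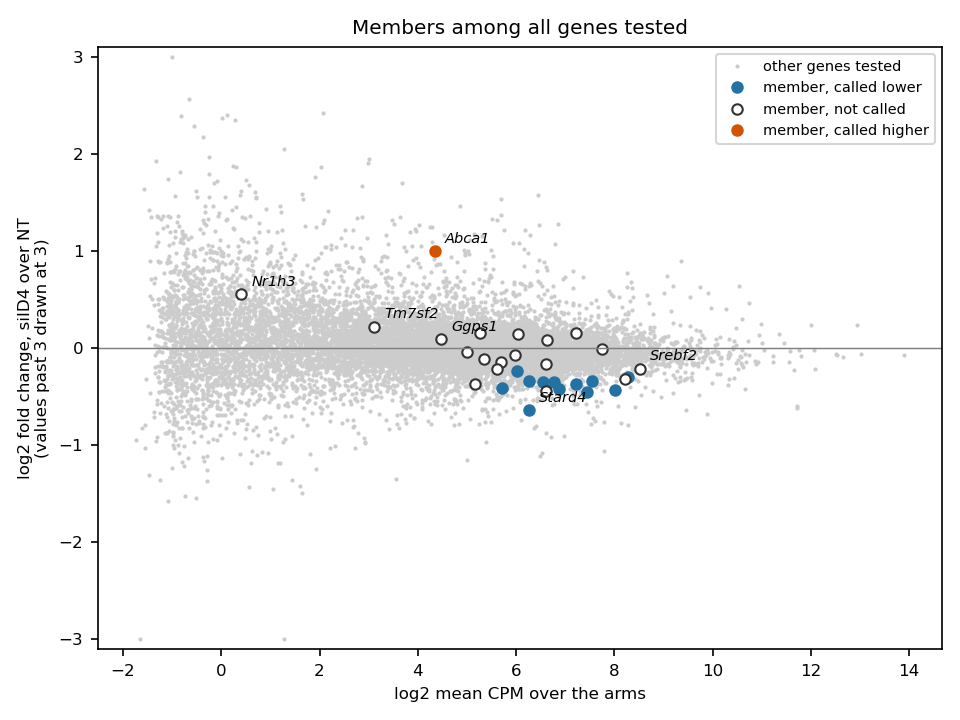
Log2 fold change of siID4 over NT against log2 mean CPM for all 13941 genes tested (grey) with the 31 genes of the cholesterol pathway on top, blue for the 12 called lower, orange for Abca1, the 1 called higher, and open for the 18 not called. The genes called lower lie between −0.64 and −0.24.

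A list of further sterol genes was called about as often as all genes. Of 35 tested, 2 fell and 3 rose, 5.71% and 8.57% beside 4.93% and 4.62% of all genes tested. With the block 7 were lower and 6 higher, 20.0% and 17.1% beside 18.3% and 17.9%. The calls numbered 2 in all without siID4 replicate 2 and 3 in all without siID4 replicate 1, NT replicate 2 or NT replicate 3, and the median log2 fold change was 0.00. Scarb1, a receptor for HDL cholesterol, averaged 98.7 ± 5.16 CPM in siID4 cells and 123 ± 5.41 CPM in NT cells (log2 fold change −0.32, edgeR adjusted p = 0.00874, or 0.0582 without siID4 replicate 2). Osbp, an oxysterol-binding carrier at the Golgi, averaged 74.7 ± 2.77 CPM in siID4 cells and 94.3 ± 0.298 CPM in NT cells (−0.34, edgeR adjusted p = 0.00396). Erlin2, which takes part in the breakdown of sterol-regulated proteins of the endoplasmic reticulum, had 128, 129 and 127 CPM in siID4 libraries against 106, 109 and 101 CPM in NT libraries (0.28, edgeR adjusted p = 0.00621). Lipa, the lysosomal acid lipase that frees cholesterol from its esters, was higher at 0.33 (edgeR adjusted p = 0.0491), and Vldlr, a lipoprotein receptor, at 0.37 (0.0395). Lipa did not pass with DESeq2 size factors (0.0501) or with a floor of 5 CPM on the mean (0.0511). Lipa passed only without siID4 replicate 3, and Vldlr only without siID4 replicate 3 or NT replicate 1, among the 6 fits without 1 library. The paralogues Acat3 and Idi2 were at most 0.602 CPM in any library, and Acat3 was not called (edgeR adjusted p = 0.767).

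Genes outside the sterol pathway that respond to SREBP were lower in part. Of 15 tested, 6 fell and 0 rose, 40.0% and 0.0% beside 4.93% and 4.62% of all genes tested. With the block 9 were lower and 2 higher, 60.0% and 13.3% beside 18.3% and 17.9%, and the median log2 fold change was −0.10. Those that fell were Scd1, the stearoyl-CoA desaturase (−0.48, edgeR adjusted p = 0.0181), Elovl6, a fatty acid elongase (−0.38, 0.00788), Fads1, a fatty acid desaturase (−0.23, 0.00868), Lpin1, a phosphatidate phosphatase (−0.56, 0.0153), Tmem97, a sterol-responsive membrane protein (−0.34, 0.0167), and Aacs, acetoacetyl-CoA synthetase (−0.20, 0.0451). Without siID4 replicate 2, Elovl6 alone of these 6 passed; without NT replicate 2, Scd1 (0.0545), Tmem97 (0.0707) and Aacs (0.137) did not, nor did Tmem97 (0.0507) and Aacs (0.131) without siID4 replicate 1, nor Aacs without siID4 replicate 3 (0.101) or NT replicate 3 (0.118). Scd1 had 793, 674 and 666 CPM in siID4 libraries against 1117, 966 and 892 CPM in NT libraries, without overlap. The genes at the head of fatty acid synthesis were not called, with log2 fold changes of 0.08 for Fasn, −0.01 for Acaca and −0.05 for Acly (edgeR adjusted p = 0.671, 0.962 and 0.532), but Fasn was called higher with the block (edgeR adjusted p = 0.0252).

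Some values depend on how reads were assigned. In the annotation, exons of Ggps1, Fdft1, Cyp51, Npc1 and Srebf1 overlap an expressed gene on the opposite strand, and exons of Tm7sf2 overlap Vps51 on the same strand; the strand setting of the counting is not given in the sources used here. For Fdft1 the neighbour is Ctsb, at 439.9 CPM in siID4 cells and 441 CPM in NT cells, and for Cyp51 it is Akap9, at 149 CPM in siID4 cells and 153 CPM in NT cells. Values that were not whole, which arise when reads are shared between genes, occurred in Acat2, Idi1, Fdps, Fdft1 and Tm7sf2.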

How the data were processed

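Poly(A) RNA was sequenced from 3 siID4 and 3 NT cultures with a stranded kit, per the labels' protocols. The authors deposited a table of expected counts per gene with the gene length in bases. Tools named in the submitters' processing notes are cutadapt, STAR and RSEM, with the build mm10; no source used here gives versions, annotation, strand setting or the filtering rule. For testing, the expected counts were rounded to whole numbers. Libraries held 19216688 to 23095620 counts. filterByExpr kept 13941 of 25655 genes. Arms were compared on all genes kept by the quasi-likelihood test of edgeR (version 4.0.16, in R 4.3.3) with robust dispersions, TMM scaling and arm as the only term, at a Benjamini-Hochberg adjusted p under 0.05; it was tested on simulated data. Standard errors were derived from the F statistic. The biological coefficient of variation was 7.83%. All libraries of an arm differed by more than sampling noise (chi-square 4.81 to 12.8 per gene). P-values measure the spread between these cultures of 1 line. An exact permutation test of 3 against 3 cannot give a two-sided p below 0.1.

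CPM are TMM-scaled, CPM per kilobase use the deposited length, and log2 differences within replicate numbers use a pseudocount of 0.5 CPM. The arms share replicate numbers in their titles. Same-numbered libraries deviated together from their arm means, so blocked values stand beside results whose call the block changes. Correlations across genes were 0.42, 0.14 and 0.38 for numbers 1, 2 and 3, and at most −0.02 for other pairs (prior count 2). Deviations cancel within an arm, so the values of other pairs are not separate evidence of pairing. Coordinates and overlaps are from GENCODE M21 (25376 genes matched), start regions from RefSeq. All 32 members are named whatever their test gave, with Id4 and, from the lists of other sterol and SREBP-responsive genes, those called; other genes named beside them, and 2 of the printed windows, were chosen after their values were seen. Members and lists were chosen with earlier results of these data known. Alternatives were DESeq2 size factors, upper quartile scaling, library totals, no filter, a floor of 5 CPM on the mean, the DESeq2 test (1.42.0), voom from limma (3.58.1), the replicate block and leaving out each library.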

Additional observations from a re-analysis of the deposited data

How the results depend on the processing

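The 12 calls of lower pathway genes all remained with DESeq2 size factors, upper quartile scaling, library totals, no filter, a minimum of 5 CPM, DESeq2, limma-voom and the replicate block, while 8 to 12 of them remained without 1 library, the fewest without siID4 replicate 2. With the replicate block, 2493 genes of the whole table were higher and 2545 lower, 19 of the pathway genes were lower and 4 higher, 13 other sterol genes and 11 SREBP-responsive genes were called. With library totals 2 pathway genes were higher, Abca1 and Npc2, and the median log2 fold change of all 31 was −0.19. Leaving out 1 library gave 221 to 686 higher and 224 to 665 lower genes in the whole table, 8 to 14 lower and 1 to 2 higher pathway genes, a median of −0.25 to −0.18, 2 to 5 other sterol genes and 1 to 7 SREBP-responsive genes. Apart from the block, the other alternatives gave 12 to 15 lower pathway genes, the most with DESeq2. Srebf1, at −0.01, turned to 0.015 with library totals, 0.03 without siID4 replicate 3 and 0.036 without NT replicate 1 (range without 1 library −0.057 to 0.036), and Acat3, at 0.32, turned to −0.16 without NT replicate 2 (range −0.16 to 0.76); the cause was not tested. Of the other values of single genes, 554 kept their side of the threshold, 21 passed it and 34 missed it. The depth limits Abcg1, Acat3 and Idi2, which had too few counts for a firm value. The calls of Aacs (edgeR adjusted p = 0.0794 with library totals) and Lipa (0.0501 with DESeq2 size factors, 0.0511 with a floor of 5 CPM) depended on the scaling or filter.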
